A study of Rattus norvegicus with 6 samples.

Results

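Non-canonical miRNAs, which reach their mature form without at least one step of the usual pathway, were described in fibroblasts of rat sciatic nerve and in the extracellular vesicles (EV) these cells release. The members were all rows of the deposited tables named as an arm of rno-miR-320, rno-miR-484, rno-miR-1839, rno-miR-664, rno-miR-702, rno-miR-877 or rno-miR-1224. The rule found 10 rows, led by rno-miR-320-3p, rno-miR-484 and rno-miR-1839-5p, from these 7 families, of 1071 rows in all and 552 known rat miRNA rows. The 3 EV libraries were made from RNA of vesicles (called exosomal by the submitters), and the 3 Intracellular libraries, the controls of the design, from RNA inside the cells. Both groups came from wild type, untreated, nerve-derived fibroblasts, and the labels place all 6 samples in batch 1. The sources used here give neither age, sex nor strain, and they do not tie the replicates to cultures or animals. Any p-value is therefore against the spread among these libraries, which can be technical.

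Most miRNAs are cut from a long transcript in the nucleus by Drosha with its partner Dgcr8, exported, and cut again by Dicer. Other routes are represented here. Hairpins that begin at a transcription start carry the cap of the transcript as their 5' end, need no Drosha cut, and load mainly their 3' arm. miR-320 is the standard example, and miR-484 is placed with it. The row name of miR-484 gives no arm, so loading of a 3' arm is not claimed for it. Some small nucleolar RNAs, which otherwise guide the chemical modification of other RNAs, fold into hairpins that Dicer can cut; miR-1839 and miR-664 derive from such RNAs of the box H/ACA class. Mirtrons are short introns whose ends are set by splicing in place of Drosha; miR-702, miR-877 and miR-1224 are of this kind. These assignments are background knowledge, and the counts do not show by which route a molecule was made.

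RefSeq's miRNA table (build GRCr8) held 9 of the 10 members, and all 9 sequences were identical to the deposited ones. The mature sequences of miR-484 and miR-1839-5p are shown because the results below turn on them, and that of miR-1839-3p as the opposite arm of the same hairpin, with the seed (bases 2 to 8, the part that pairs with target RNAs) in capitals.
rno-miR-484: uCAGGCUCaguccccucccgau
rno-miR-1839-5p: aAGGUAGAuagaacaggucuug
rno-miR-1839-3p: aGACCUACuuaucuaccaacag
No other known row of the files shared the seed of any of the 10 members, so each forms a seed group of its own here. The letters AGGUAG stand at bases 2 to 7 of miR-1839-5p. The same letters stand at bases 3 to 8 of 9 known rows, all of them let-7 miRNAs or miR-98-5p, so the match to that family is displaced by 1 base.

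The mirtron hairpins are shown because their ends carry the letters of a spliced intron, GU at the start and AG at the end, here in capitals.
Mir1224: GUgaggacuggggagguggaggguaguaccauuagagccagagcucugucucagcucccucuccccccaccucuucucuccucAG
Mir877: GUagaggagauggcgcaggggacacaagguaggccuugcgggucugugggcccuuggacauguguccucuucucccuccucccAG
Mir702: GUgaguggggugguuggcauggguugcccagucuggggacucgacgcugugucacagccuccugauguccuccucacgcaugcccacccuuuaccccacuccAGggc
In all 3 hairpins an annotated mature miRNA began at base 1. Among RefSeq's rat hairpins with a mature entry, 6 of 407 (1.47%) had a mature miRNA at the first base. Mir1224 and Mir877 were among the 4 of 419 hairpins (0.955%) that both began with GU and ended with AG. Mir702 began with GU and had 3 annotated bases after its last AG. By position in RefSeq, Mir1224 lay within Vwa5b2, Mir877 within Abcf1, Mir702 within Plod3 and Mir664-2 within Rab3gap2. Mir320a and Mir484 lay outside any annotated gene, with Polr3d and Marf1 as the nearest.

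The EV libraries held 81211 to 105578 counts and the Intracellular ones 1839047 to 8859302, so 1 EV count stood for 9.47 to 12.3 CPM, the level with each library scaled to 1000000 counts. CPM has no length term. Of the whole table, 328 miRNAs passed the count filter and were tested with edgeR's quasi-likelihood test. The filter acts on CPM, so 1 count in EV replicate 1 or 3 (12.3 or 10.8 CPM) met it in that library. Of the 328 miRNAs, 84 were higher and 56 lower in EV at a Benjamini-Hochberg adjusted p under 0.05. That split depended on the scaling: with total-count in place of TMM scaling 32.6% were higher and 3 miRNAs lower, and the median over all log2 fold changes moved from -0.06 to 0.55. Intracellular replicate 1 stood apart with a TMM factor of 0.557, against 0.963 and 0.935 in replicates 2 and 3. The 6 fibroblast and mesenchymal miRNAs used as a check of the label (miR-143-3p, miR-145-5p, miR-199a-3p, miR-214-3p, miR-21-5p and miR-152-3p) summed to 413695 to 441418 CPM in EV and 445141 to 474657 CPM inside the cells. Singly they went both ways: with TMM scaling 2 were called higher in EV (miR-214-3p and miR-152-3p) and 3 lower. With total-count scaling 2 were higher and 0 lower.

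A few members were abundant enough to measure well, and each was higher in EV: miR-320-3p by 5.23-fold, miR-484 by 2.78-fold and miR-1839-5p by 2.69-fold in the TMM-scaled fit. They took most of the 885 EV and 9329 Intracellular counts of the members. Of the 10 members 4 were tested, 3 were higher and 0 lower, where 25.6% of all tested miRNAs were called higher and 17.1% lower (20.7% higher among known miRNAs). At an unadjusted p under 0.05, 0 of the 4 tested members were lower by edgeR, DESeq2 or limma-voom. The 6 untested members held at most 2 EV counts each and miR-664-3p held 3, too few to show a fall. Over the 4 tested members the median log2 fold change was 1.45, and over everything tested -0.06, or 2.06 and 0.55 with total-count scaling. The filter admits rows partly by their EV level, and the members were chosen with earlier results known, so this median is a description and not evidence for the list.

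**Figure D1:**
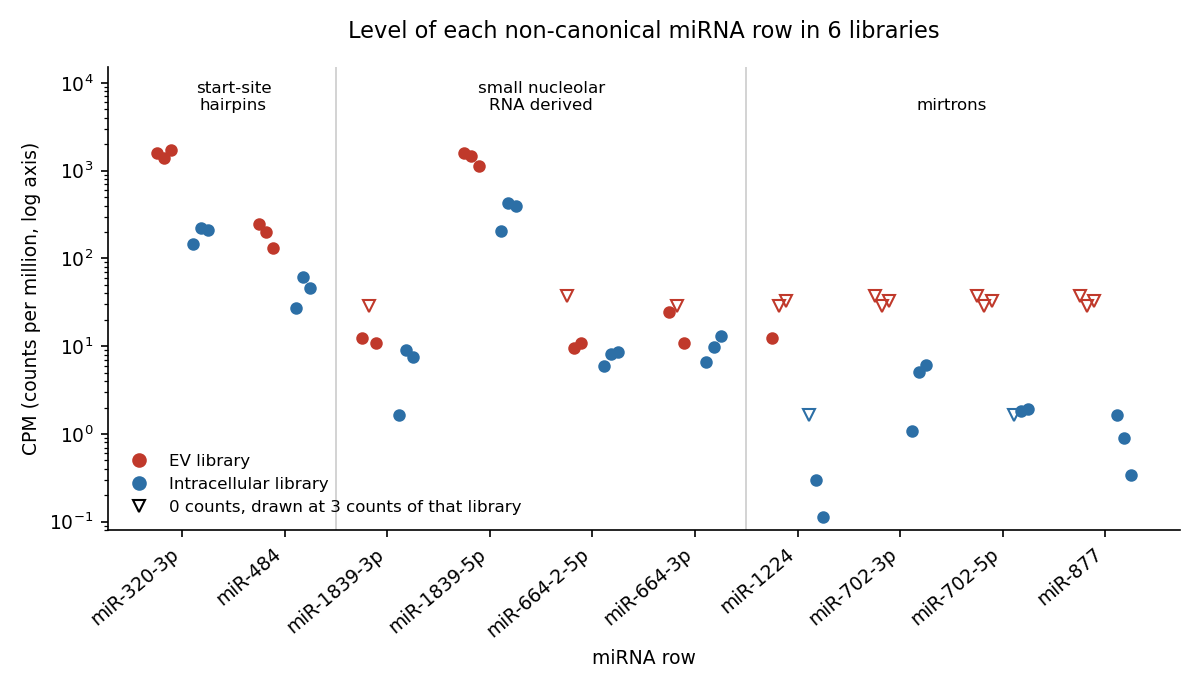
CPM (log axis) of the 10 members in each of the 6 libraries, ordered by route; filled points are libraries with counts, and open triangles are libraries with 0 counts, drawn at the level of 3 counts. miR-320-3p, miR-1839-5p and miR-484 are higher in all EV libraries (red) than in any Intracellular library (blue), while the other 7 rows lie near or under the EV floor.

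Among the start-site hairpins, miR-320-3p was at 1576, 1411 and 1700 CPM in EV replicates 1, 2 and 3, from 434 counts in all. In the Intracellular replicates it was at 144.6, 221.5 and 212.3 CPM, from 2881 counts. The groups did not overlap, and the lowest EV library stood 6.37 times above the highest Intracellular one. Such a gap in the same direction, whatever its size, was seen for 41.8% of all tested miRNAs. The EV mean was 1563 ± 145.1 CPM and the Intracellular mean 192.8 ± 42.0 CPM (SD, n = 3). The ratio of these means was 8.10, larger than the fitted 5.23, since TMM takes the EV libraries as larger than their totals (factors of 1.17 to 1.35) and the Intracellular ones as smaller (0.557 to 0.963). Its log2 fold change stood at 2.39 (SE 0.20, edgeR adjusted p = 1.69e-08), or 3.02 (adjusted p = 1.07e-08) with total-count scaling. The counting error was small beside this: the 95% exact (Clopper-Pearson) interval of its pooled share was 1412 to 1708 CPM in EV and 198.2 to 213.3 CPM inside the cells. These intervals cover counting error only, since PCR reads without molecular identifiers are not independent molecules.

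In rank, miR-320-3p stood 130th of the known miRNAs by mean Intracellular level and 55th by mean EV level. Its EV neighbours by rank were miR-181b-5p above (1586 ± 149.3 CPM) and miR-455-5p below (1557 ± 539 CPM). Inside the cells they were miR-674-3p (194.1 ± 67.5 CPM) and miR-7a-5p (188.9 ± 40.3 CPM). Neighbours are close in level because they were picked by rank. Of the 72 known miRNAs with a mean of at least 1000 CPM in EV, 17 were called higher, and 3 of the 72 had a larger log2 fold change: miR-122-5p, miR-378a-3p and miR-423-5p. The rule found no row for the 5' arm of miR-320.

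miR-484 was at 246.3, 198.9 and 130 CPM in EV replicates 1, 2 and 3, on 20, 21 and 12 counts. The Intracellular replicates had 27.2, 62.2 and 45.5 CPM, on 659 counts in all. Every EV library was above every Intracellular one, with the lowest EV value 2.09 times the highest Intracellular value. The means were 191.7 ± 58.5 and 44.95 ± 17.5 CPM (SD, n = 3). The log2 fold change was 1.48 (SE 0.30, edgeR adjusted p = 0.000659), or 2.08 (adjusted p = 0.000429) with total-count scaling. With 53 EV counts in all, the exact interval of its pooled EV share ran from 142.2 to 248.4 CPM, so its size was known less closely than that of miR-320-3p.

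Among the members derived from small nucleolar RNA, miR-1839-5p, of the Scarna15 locus, was at 1588, 1487 and 1126 CPM in EV replicates 1, 2 and 3, from 129, 157 and 104 counts. The Intracellular replicates had 205.5, 424.1 and 397.9 CPM, from 378, 1405 and 3525 counts. The groups did not overlap, and EV replicate 3 was the lowest EV library for both miR-1839-5p and miR-484 but the highest for miR-320-3p. The means were 1401 ± 243 and 342.5 ± 119.3 CPM (SD, n = 3). The log2 fold change was 1.43 (SE 0.20, edgeR adjusted p = 8.02e-06), or 2.03 (adjusted p = 1.73e-05) with total-count scaling. Its place by mean level was 94th of the known miRNAs in Intracellular and 59th in EV libraries. Its EV neighbours by rank were miR-351-5p (1404 ± 119 CPM) and miR-196a-5p (1365 ± 92.1 CPM).

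The opposite arm, miR-1839-3p, held 1, 0 and 1 counts in EV replicates 1, 2 and 3 and 3, 30 and 66 in the Intracellular ones. The 5' arm was the major arm in every library. The 3' arm made up 0.510% of the pooled EV counts of both arms (exact 95% interval 0.0618% to 1.83%) and 1.83% of the Intracellular ones (1.49% to 2.22%). These intervals overlap. At the pooled Intracellular rate 1.97 counts of miR-1839-3p were expected in EV and 2 were seen. This rate takes no account of the rise of the 5' arm. The exact 95% interval of the pooled EV share was 0.868 to 25.9 CPM, around 7.07 CPM inside the cells. A fall of this arm, or a rise within that interval, was not detectable at this depth. Whether it rose along with the 5' arm was not tested.

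miR-664-3p, the other snoRNA-derived miRNA that was tested, had 2, 0 and 1 counts in EV replicates 1, 2 and 3 and 12, 32 and 116 in the Intracellular ones. It passed the filter partly on these few EV counts. Its log2 fold change was -0.49 (SE 0.88, edgeR adjusted p = 0.679), and 0.12 with total-count scaling (SE 0.97, adjusted p = 0.936). At the Intracellular rate 3.19 EV counts were expected and 3 were seen. miR-664-3p is annotated in RefSeq at both Mir664-2 and Snora36c, so its counts cannot be assigned to 1 locus. The 5' arm of the Mir664-2 copy, miR-664-2-5p, had 2 EV counts where 2.29 were expected. For the 5' arm of the other copy the rule found no row. The arms of miR-664 were close to balanced inside the cells, with a log2 ratio of the 3' over the 5' arm of 0.12, 0.24 and 0.58 in Intracellular replicates 1, 2 and 3. In miR-1839 the same ratio was -6.57, -5.50 and -5.72.

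The mirtrons were the rarest members. miR-702-3p had 2, 17 and 54 counts in Intracellular replicates 1, 2 and 3, a mean of 4.10 ± 2.66 CPM (SD, n = 3), and 0 counts in every EV library. Its 5' arm, miR-702-5p, had 0, 6 and 17 Intracellular counts and 0 in EV. miR-877 had 3 counts in each Intracellular library and 0 in EV. A count of 0 over the 279118 pooled EV counts allows a share of up to 10.7 CPM by the floor of 3 counts, or 13.2 CPM by the upper end of the exact 95% interval. Both are above the pooled Intracellular levels of all 3 rows (5.21, 1.64 and 0.642 CPM), where 1.45, 0.458 and 0.179 EV counts were expected. A lower level of these rows in EV was therefore not detectable at this depth, and a higher one only above these limits. miR-1224 had 1 count in EV replicate 1 and 0 in the others, against 0, 1 and 1 in the Intracellular libraries, too few for a comparison. None of the mirtron rows passed the filter; with no filter beyond 1 count, none of the 6 members left out before was called by edgeR, with adjusted p from 0.223 to 0.841.

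Summed by route, start-site hairpins (2 rows) held 0.175% ± 0.0125 of all counts in EV and 0.0238% ± 0.00586 inside the cells (SD, n = 3). The 4 snoRNA-derived rows took 0.143% ± 0.0241 and 0.0366% ± 0.0127. The 4 mirtron rows took 0.00123% of EV replicate 1, from a single count of miR-1224, and 0 in the other EV libraries, against 0.000272%, 0.000815% and 0.000847% in Intracellular replicates 1, 2 and 3. All members together held 0.319% ± 0.0245 of EV and 0.0610% ± 0.0189 of cellular counts. Intracellular replicate 1 was the lowest of all libraries at 0.0394%, against 0.0743% and 0.0693% in replicates 2 and 3.

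**Figure D2:**
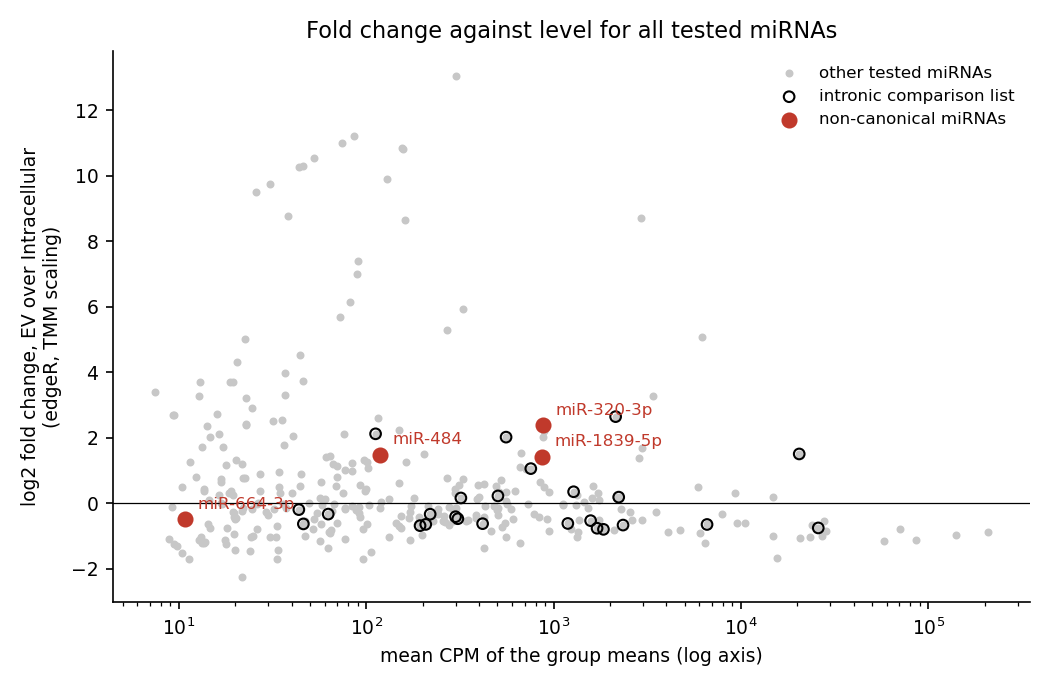
Log2 fold change (EV over Intracellular, edgeR with TMM scaling) against the mean of the group means in CPM (log axis) for all 328 tested miRNAs. miR-320-3p, miR-1839-5p and miR-484 (red) lie above 0, at places 44, 65 and 63 of 328 by log2 fold change, and miR-664-3p lies at place 224; open circles are the 25 tested miRNAs of the intronic comparison list.

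A comparison list held the major arms of 26 miRNAs that lie in introns of protein-coding genes but are cut by Drosha in the usual way. Of the 25 tested, 5 were higher and 9 lower, with a median log2 fold change of -0.41; with total-count scaling 7 were higher and 0 lower, with a median of 0.17. The 3 most abundant were miR-26a-5p at -0.75, miR-152-3p at 1.51 and miR-10a-5p at -0.65 on the log2 scale. The largest rise in this list was that of miR-378a-3p, at 2.65 (edgeR adjusted p = 2.05e-08), beside 2.39 for miR-320-3p. The 4 tested members thus lay within the range of this list. The Dicer-independent miR-451-5p, which is cut by Argonaute 2, was the other non-canonical miRNA considered. It had 4, 3 and 3 counts in EV and 3, 13 and 7 in Intracellular replicates 1, 2 and 3. Its log2 fold change was 3.71 (SE 0.80, edgeR adjusted p = 0.00122).

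Ratios between miRNAs within a library do not depend on the scaling between libraries, so the members were also compared in this way. Inside the cells miR-320-3p was the rarer of the 2 leading members, at 0.704, 0.522 and 0.534 times the count of miR-1839-5p in replicates 1, 2 and 3. In EV the counts were about level in replicates 1 and 2 (0.992 and 0.949) and miR-320-3p led in replicate 3 (1.51). The log2 ratio averaged 0.17 ± 0.37 over EV and -0.78 ± 0.24 over Intracellular libraries (SD, n = 3). Its difference of 0.95 came with no overlap between groups (2-sided exact permutation p = 0.1, the smallest that 3 against 3 samples allow; 0.129 adjusted over 18 ratios). Against miR-484, miR-320-3p had a log2 ratio of 2.997 ± 0.53 in EV and 2.15 ± 0.29 inside the cells. That difference of 0.85 also came without overlap (exact permutation p = 0.1, 0.129 adjusted). The nearest values were 2.62 in EV replicate 1 and 2.39 in Intracellular replicate 1. The highest was 3.60 in EV replicate 3, where miR-484 had 12 counts. No ratio can pass 0.05 by this exact test with 3 against 3 samples.

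The ratio of miR-484 to miR-1839-5p, 1 member of each of these routes, was -2.83 ± 0.19 in EV and -2.93 ± 0.18 inside the cells on the log2 scale (SD, n = 3). The groups overlapped, and the difference of 0.10 was within the spread between replicates (exact permutation p = 0.5). Leaving out 1 library at a time it ran from -0.001 to 0.19. The change of 0.85 between the start-site hairpins miR-320-3p and miR-484 thus stands beside 0.10 between miR-484 and the snoRNA-derived miR-1839-5p. The former drew most on EV replicate 3. With 2 start-site hairpins and 1 abundant snoRNA-derived row, a difference between routes could not be tested.

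**Figure D3:**
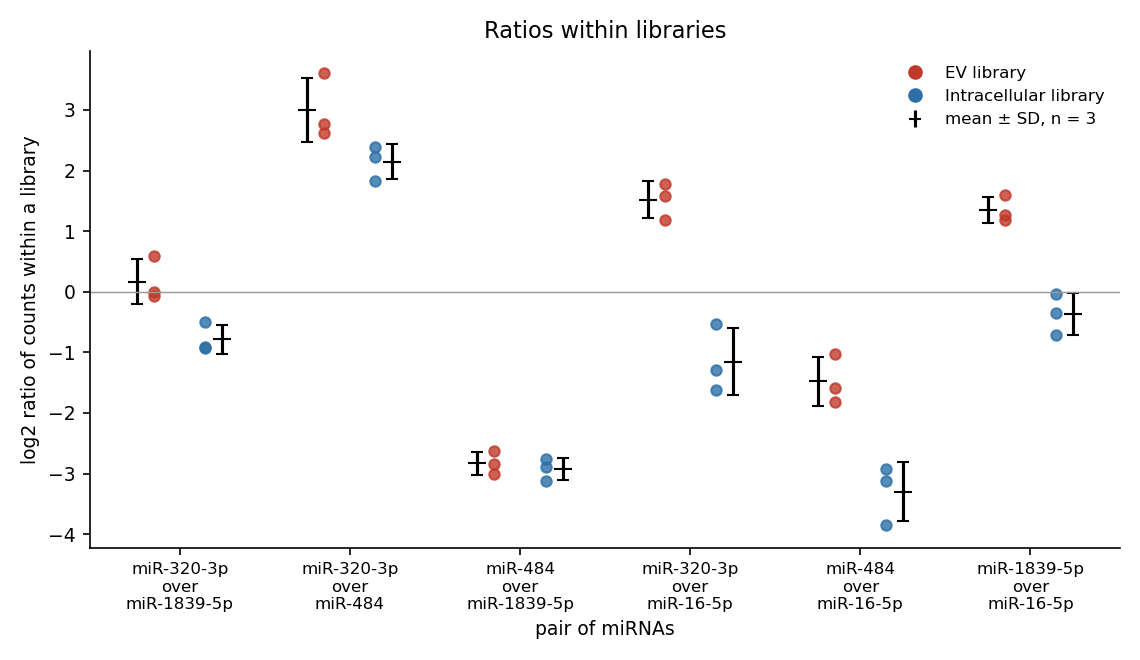
Log2 ratio of counts within each library for 6 pairs of miRNAs (prior count 1); points are libraries and black marks the mean ± SD (n = 3). The groups are apart in 5 pairs and overlap for miR-484 over miR-1839-5p, where the means are -2.83 in EV and -2.93 in Intracellular libraries.

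Widely expressed miRNAs served as denominators. Their own log2 fold changes in the TMM-scaled fit were -0.35 (miR-16-5p), -0.26 (miR-191a-5p) and -0.67 (miR-103-3p). Of these only miR-103-3p was called lower (edgeR adjusted p = 0.00876). With total-count scaling they were 0.20, 0.36 and -0.06, and none was called. A rise against a denominator includes any fall of the denominator. miR-320-3p was at 3.05, 2.29 and 3.49 times the count of miR-16-5p in EV replicates 1, 2 and 3, and at 0.687, 0.408 and 0.324 times in the Intracellular ones. The order of these miRNAs was thus reversed between EV and cells in every library. miR-1839-5p changed order with miR-16-5p in the same way, from 0.977, 0.781 and 0.606 times inside the cells to 3.07, 2.42 and 2.31 times in EV. On the log2 scale the rise of miR-320-3p was 2.67 against miR-16-5p, 2.65 against miR-191a-5p and 3.06 against miR-103-3p. For miR-484 the rises were 1.82, 1.80 and 2.21, and for miR-1839-5p 1.72, 1.70 and 2.11. In all 9 of these ratios the groups did not overlap (exact permutation p = 0.1, 0.129 adjusted over 18). They reuse the same members and denominators, so they are not 9 separate results. The share of all tested miRNAs that separate in such ratios was not computed. By CPM, 41.8% of them were higher in every EV library than in any Intracellular one.

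Among 160 known miRNAs with a mean of at least 100 CPM, those most like miR-320-3p by Pearson's r of log2(CPM + 1) over the 6 libraries were miR-423-5p (0.995), miR-148a-3p (0.994), miR-29a-3p (0.993), miR-182 (0.989) and miR-183-5p (0.988). miR-1839-5p was 12th (0.968) and miR-484 26th (0.945). The libraries fall into 2 groups, so any miRNA that is clearly higher in EV scores high, and the values are a description.

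The members differed in base composition. The share of G and C was 54.5% in miR-320-3p, 63.6% in miR-484 and 40.9% in miR-1839-5p, with a median of 45.8% over the 290 known miRNAs tested. miR-484 was thus richer in G and C than 91.4% of them and miR-1839-5p poorer than most, with 19.7% of them below it, and both were called higher. The mirtron rows were between 60.9% and 66.7%. Short runs of letters were looked up on the RNA strand alone. GGAG, a motif described for miRNAs sorted to vesicles, was in miR-1224 and miR-877 and in 8.62% of the known miRNAs tested. CCCU was in miR-484 and miR-702-3p (6.90% of those tested), and GGGG in miR-664-2-5p, miR-1224 and miR-702-5p (3.10%). miR-320-3p and miR-1839-5p held none of the 3.

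**Figure D4:**
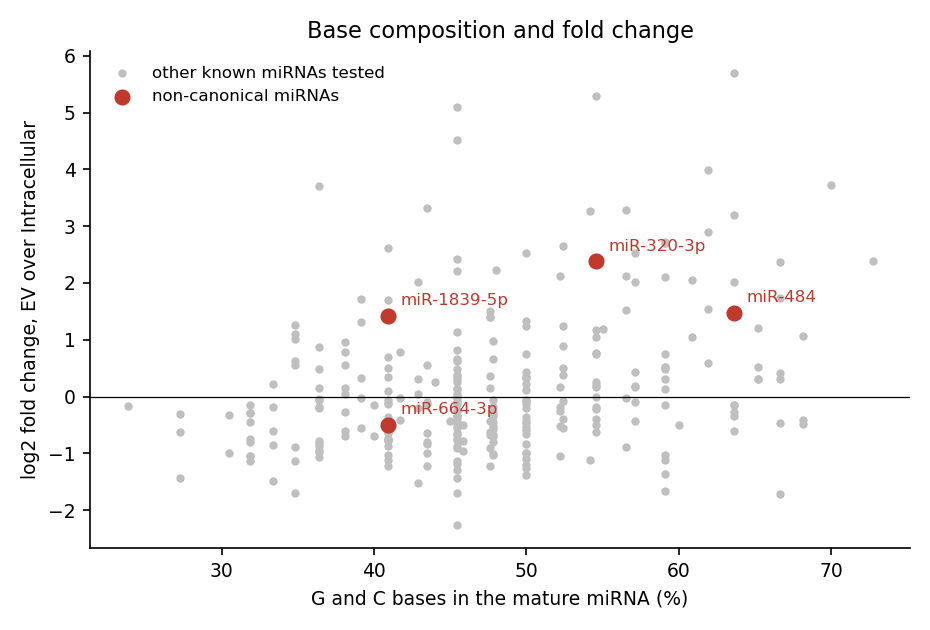
Log2 fold change (EV over Intracellular, edgeR) against the percent of G and C bases in the mature miRNA for the 290 known miRNAs tested. The non-canonical members (red) lie from 40.9% to 63.6%; miR-1839-5p and miR-664-3p share the value of 40.9% but lie at 1.43 and -0.49.

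Markers of other cells moved with the groups as well. The erythroid list (miR-451-5p, miR-486, miR-144-3p) summed to 151.5 to 221.6 CPM in EV and 2.26 to 5.98 CPM inside the cells; both tested members were higher, and miR-144-3p was at 0 in EV. The liver and serum list (miR-122-5p, miR-192-5p, miR-194-5p) summed to 11612 to 14069 CPM in EV and 397.1 to 476.3 CPM inside the cells, with 1 of 3 called higher, miR-122-5p. The muscle list (3 miRNAs) summed to 49.3 to 151.5 CPM in EV and 9.06 to 12.6 CPM inside the cells, with 1 of 1 tested called higher. The myelinating glia list (3 miRNAs) summed to 21.7 to 85.2 and 8.70 to 22.2 CPM, with 1 of 2 tested called higher and miR-219a-5p at 0 in EV. Of 2 leukocyte and 2 endothelial miRNAs tested, 0 were called by edgeR with TMM scaling, and 1, the leukocyte miR-155-5p, with total-count scaling (log2 fold change 1.21, adjusted p = 0.0256). In the leukocyte list miR-142-5p and miR-223-3p were at 0 in EV, while its sum was 216.6 to 265.2 CPM in EV and 63.6 to 169.9 CPM inside the cells. The endothelial sum was 259.9 to 435.7 and 141.4 to 390.3 CPM. miR-320 and miR-484 are made in many cell types, and the part of other cells or of culture medium in their EV levels was not tested.

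The higher calls of miR-320-3p, of miR-484 and of miR-1839-5p were also made under every other scaling, filter, tool and left-out library tried. Their log2 fold changes ranged from 2.14 to 3.04, from 1.23 to 2.12 and from 1.18 to 2.09 over 23 alternatives each. The highest adjusted p over these alternatives was 6.94e-05, 0.0149 and 0.00161 in the same order.

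**Figure D5:**
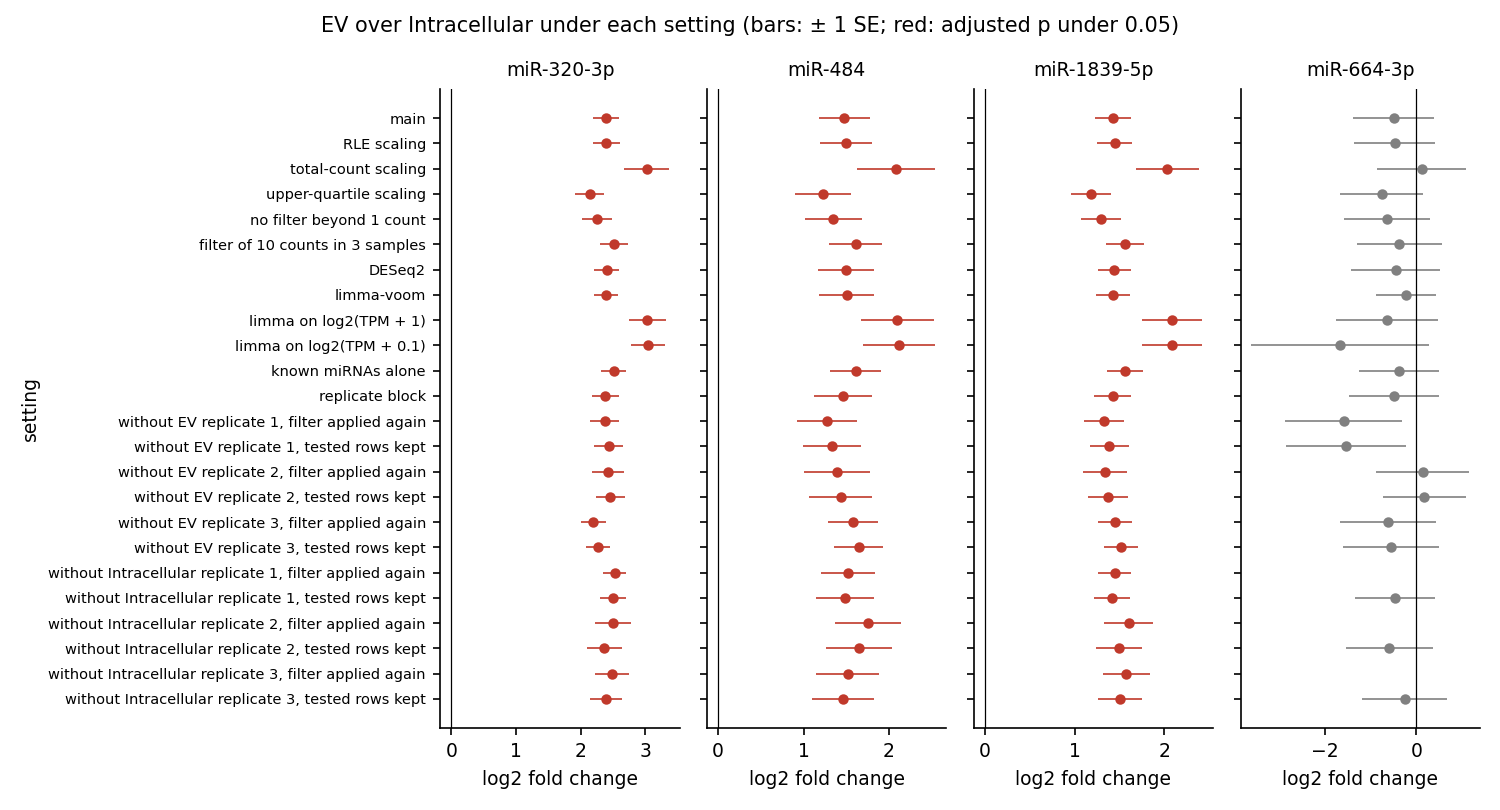
Log2 fold change (EV over Intracellular) of the 4 tested members under each setting, with bars of 1 SE; red marks an adjusted p under 0.05 and grey one above. The 3 abundant members stay red throughout, between 1.18 and 3.04, while miR-664-3p stays grey and lies on both sides of 0; missing points are settings in which its row was not tested.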

How the data were processed

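Small RNA libraries of 3 EV and 3 Intracellular samples were used. The counts per mature miRNA were made by the authors from their reads and deposited as whole numbers. The deposited TPM values equal these counts scaled to 1000000 per library, to within 4.78e-05. The submitters' processing notes name cutadapt and the build Rnor_6.0; which aligner, miRNA database and counter were used is not given in the sources used here. Per the labels' protocols, adapters were ligated and the cDNA amplified by PCR, both of which favour some sequences. Reads of snoRNA or intron fragments that match a mature sequence cannot be told from the miRNA. RefSeq coordinates are of another build and not printed.

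Counts were tested with edgeR 4.0.16 (R 4.3.3; glmQLFTest, TMM, filterByExpr with minimum count 10 and minimum total 15, robust, 2-sided), adjusted over all tested rows, SE from the F statistic. The alternatives were other scalings, filters, DESeq2 1.42.0, limma 3.58.1 (voom, log2(TPM + 1), log2(TPM + 0.1)), known miRNAs alone, a replicate block and each library left out. Ratios used a prior count of 1 and exact permutation tests. All replicate pairs differed by more than counting error (chi-square over its degrees of freedom at least 3.67). Every member was named; members and lists were chosen with earlier results of these data known.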

Additional observations from a re-analysis of the deposited data

How the results depend on the processing

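The 3 higher calls among the members, and the count of 3 higher and 0 lower, were the same under all 23 alternatives. miR-664-3p was not called under any of its 20 alternatives, and its log2 fold change turned positive with total-count scaling (0.12) and without EV replicate 2 (leave-one-out range -1.59 to 0.18). Over all tested miRNAs, the number called lower was 3 with total-count scaling, 92 with upper-quartile scaling, 36 with a filter of 10 counts in 3 samples, 4 and 2 with limma on log2(TPM + 1) and log2(TPM + 0.1), and 37 among known miRNAs alone. Without a filter 197 were called higher. Leaving out 1 library gave 50 to 91 higher and 18 to 58 lower. The cause was not tested, except that fewer rows or samples enter some fits. With the 10 most abundant miRNAs out of the denominator, the differences in share grew to 0.675 percentage points for all members, 0.409 for start-site hairpins, 0.266 for snoRNA-derived rows and -0.00124 for mirtrons, by construction. The log2 ratio of miR-484 to miR-1839-5p ranged from -0.00137 to 0.191 with 1 library left out. The ratios of miR-664-3p, from 3 EV counts, turned with the prior count: -0.978 against miR-103-3p with a scaled prior, -0.336 and -1.35 against miR-16-5p, and -0.374 and -1.39 against miR-191a-5p with priors of 0.25 and scaled. The arm difference of miR-1839 was -1.41 and -2.53 with these priors and that of miR-702 -2.10 with 0.25, where EV held 0 counts. With replicate number as a block, 87 miRNAs were higher and 46 lower, and 3 members higher. Deviations of same-numbered samples correlated at 0.024, 0.021 and 0.016, and those of differently numbered samples at -0.083 to 0.058. With so few EV counts these values cannot decide whether the numbers mark a shared culture. EV depth limits all members except the 3 called.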
